A study of Mus musculus with 9 samples.

Results

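The 35 genes described here encode the PPAR transcription factors and coactivators of fat burning, and the enzymes of mitochondrial and peroxisomal fatty acid oxidation. They were listed by gene symbol, with earlier results of these data known, so the list gives no independent support. All 35 were found among the 23951 genes of the deposited tables. The study measured RNA by sequencing in 9 libraries of jejunal crypts of mice, 3 per group. Smad4 KO mice carried Smad4f/f and Villin-CreER(T2), a recombinase driven by an intestinal epithelial promoter and switched on by tamoxifen, so that the deletion is directed to the epithelium. Double mutants carried Smad4f/f, Ex3f/+ and Villin-CreER(T2). Ex3 stands for exon 3 of Ctnnb1, whose removal from 1 allele leaves a beta-catenin that escapes degradation. Both mutant groups received tamoxifen on 4 days in a row and were collected 1 day after the last dose. Controls are labelled only as control mice given vehicle, while the design text calls them uninjected; their alleles, and the age and strain of all mice, are not stated. Tamoxifen and the deletion therefore cannot be told apart in either comparison. No group carried the Ex3 allele alone. Nothing in the labels says that each library is a separate animal, so the p-values measure only the spread between these libraries.

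Fatty acids are activated to acyl-CoA by synthetases, carried into mitochondria through the carnitine shuttle, and shortened in repeated rounds of dehydrogenation, hydration, a further dehydrogenation and thiolytic cleavage. Peroxisomes run a parallel pathway for very long and dicarboxylic acids, and auxiliary enzymes handle double bonds. The nuclear receptors PPAR alpha and PPAR delta bind fatty acids and switch on many of these genes, with PGC-1 proteins as coactivators; in the gut, PPAR delta acts in crypts and PPAR alpha in the absorptive enterocytes that handle dietary fat.

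Promoter sequence is shown for the members on which the comparisons below turn. Of the 35 members, 30 matched the RefSeq promoter table (GRCm38.p6), with 31 start sites. The windows are the bases upstream of the start, 5′ to 3′ on the gene's strand, trimmed where another transcript's untranslated region reached in. Ppargc1a (chr5:51567727-51567975, minus strand) and Ehhadh (chr16:21787835-21788084, minus strand) are shown because they were the members with the largest decreases that passed the test in double mutants.
Ppargc1a: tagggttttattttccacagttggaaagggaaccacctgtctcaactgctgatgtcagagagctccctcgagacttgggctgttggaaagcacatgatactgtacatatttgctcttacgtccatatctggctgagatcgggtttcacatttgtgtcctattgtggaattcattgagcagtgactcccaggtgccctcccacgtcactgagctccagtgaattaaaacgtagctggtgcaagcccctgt
Ehhadh: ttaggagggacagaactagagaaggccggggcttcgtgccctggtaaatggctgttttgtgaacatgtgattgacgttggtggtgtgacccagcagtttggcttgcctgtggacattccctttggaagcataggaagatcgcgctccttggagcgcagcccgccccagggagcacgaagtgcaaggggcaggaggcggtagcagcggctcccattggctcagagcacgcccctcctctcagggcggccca
The stretch between Hadha and Hadhb (chr5:30155163-30155247, plus strand) is shown because these genes encode the subunits of 1 enzyme complex and lie head to head, with their RefSeq starts 273 bases apart, yet were measured at unlike levels.
Hadha to Hadhb: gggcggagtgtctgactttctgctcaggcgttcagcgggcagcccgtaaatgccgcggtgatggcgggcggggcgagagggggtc
Etfa (chr9:55512244-55512493, minus strand) is shown as a called member with a match to the DR1 element bound by PPAR and RXR, and Acot1 (chr12:84009252-84009489, plus strand) as a member that rose and had the only match to the WNT element. Capitals mark those matches, both on the opposite strand.
Etfa: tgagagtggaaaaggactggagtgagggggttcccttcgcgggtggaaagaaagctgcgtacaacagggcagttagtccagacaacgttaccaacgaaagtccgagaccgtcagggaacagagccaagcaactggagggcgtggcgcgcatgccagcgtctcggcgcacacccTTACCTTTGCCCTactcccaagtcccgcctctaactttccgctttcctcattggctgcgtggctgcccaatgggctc
Acot1: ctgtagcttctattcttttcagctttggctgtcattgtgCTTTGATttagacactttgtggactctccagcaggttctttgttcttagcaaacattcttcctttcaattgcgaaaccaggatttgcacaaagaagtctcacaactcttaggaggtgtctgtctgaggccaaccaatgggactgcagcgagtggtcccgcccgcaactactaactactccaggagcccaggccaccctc
The DR1 element was searched on both strands as a direct repeat of AGGTCA with 1 base of any kind between the copies, with up to 2 mismatches; it matched 3 member promoters (Plin2, Echs1 and Etfa), or 9.68% of the 31, against 3.24% of all 32851 promoters. The WNT element ATCAAAG matched 1 member promoter against 3.21% of all promoters. The ERR element TNAAGGTCA, bound by the oestrogen-related receptors that PGC-1 proteins coactivate, matched 0 against 1.14%, and the SMAD box GTCTAGAC matched 0 against 0.167%. The GC-rich SMAD element GGCGCC matched 5 (Acads, Acsl1, Ppara, Decr2 and Ppard) against 9.59%. The Ppargc1a, Ehhadh and Hadhb windows held no match to these 5 motifs. A match is a stretch of letters in this window and nothing more.

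Levels are FPKM, fragments scaled by transcript length and library size, so that genes can be set side by side. In the controls the members spanned a wide range. Hadh, the mitochondrial 3-hydroxyacyl-CoA dehydrogenase, was highest at 280 ± 57.9 FPKM (SD, n = 3), followed by Acsl5, the main acyl-CoA synthetase of enterocytes, at 259 ± 92.7 FPKM, whose spread overlapped that of Hadh. Ech1 (152 ± 24.3 FPKM), Acaa2 (148 ± 45.1 FPKM) and Etfb (145 ± 22.3 FPKM) came next and did not differ beyond their spread. The lowest were Pdk4 (1.52 ± 1.06 FPKM), Acot2 (1.85 ± 0.605 FPKM), Acot1 (2.22 ± 1.03 FPKM) and Acaa1b (2.81 ± 1.51 FPKM). Of the receptors, Ppard (63.6 ± 5.57 FPKM) was above Ppara (16.9 ± 4.07 FPKM) in every control. All 35 members passed the filter of a mean of 1 FPKM in both tables, so none was lost to low values.

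Smad4 itself was at 49.8 ± 5.02 FPKM in controls and 10.6 ± 0.560 FPKM in Smad4 KO, and at 52.0 ± 5.96 FPKM against 10.4 ± 0.640 FPKM in the double mutant table (SD, n = 3 each; limma adjusted p = 0.00664 and 0.00176). The tables were normalised separately and share the same 3 control libraries, whose values differ between them by a factor of 1.03 to 1.06. Total FPKM ran from 568081 to 758719 per library, and 11196 to 11935 genes reached 1 FPKM; read totals are not given in the sources used here. Xist and Y-linked genes placed 1 female among the controls (control 2) and 2 females in each mutant group (Smad4 KO 1 and 2, double mutants 0 and 2). The summed FPKM of 15 stem cell markers was 523 to 2044 and that of 12 Paneth cell markers 10298 to 168896 per library. Enterocyte genes were abundant as well: the summed FPKM of 34 enterocyte markers was 5554, 7132 and 13654 in the controls.

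In Smad4 KO crypts no member passed the test, and most had a mean below that of the controls. The fold change was below 0 for 32 of 35 members (50.4% of all genes), with a median of -0.48 on the log2(FPKM + 1) scale, beside -0.00 over the 11849 genes tested. With limma and Benjamini-Hochberg adjustment over all of those genes, 0 of 35 members were called lower and 0 higher, where 0.0253% and 0.00844% of all genes were called. At an unadjusted p under 0.05, 13 members were lower (9.34% of all genes) and 1 was higher (9.76% of all genes). Smad4 KO values lay below all controls for 13 members (12.2% of all genes) and above all controls for 1, Acsl3 (14.2% of all genes). The smallest adjusted p among the members was 0.111, for Ppard and Ppargc1a. A limma fit over all 9 libraries called 3 members lower, namely Ppard, Ppargc1a and Ehhadh (adjusted p = 0.0263, 0.0272 and 0.0365). For that fit the second table was brought to the scale of the first through the shared controls. It called 179 of all genes lower and 272 higher, beside 3 and 1 in the fit of the first table alone. In these bulk libraries fewer cells of a type and less RNA per cell cannot be told apart.

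In double mutant crypts 14 members fell and 2 rose. Those that fell were Ppara, Ppard, Ppargc1a, Crat, Acadm, Hadhb, Hadh, Eci2, Decr1, Decr2, Ech1, Ehhadh, Acaa1a and Etfa, and those that rose were Acsl3 and Acot1. Of all 11762 genes tested, 9.09% were called lower and 9.39% higher, beside 40% of the members for the lower calls. The median fold change of the members was -0.66, beside -0.00 over all genes, and 33 of 35 were below 0 (50.1% of all genes). Double mutant values lay below all controls for 22 members and above all controls for 2, where 21.3% of all genes lay on each side. Calls were fewer in most fits with 1 library left out, among all genes as among the members. Without double mutant 0, 1 or 2 the members called lower were 2, 5 and 0, beside 61, 370 and 12 of all genes, where the full fit had 1069. Without control 0, 1 or 2 they were 21, 4 and 7, beside 898, 487 and 531 of all genes. The median stayed between -0.79 and -0.53. With sex as a covariate 9 members were called lower and 1 higher, beside 718 and 801 of all genes. The member calls lost there were Ppara, Acadm, Hadh, Decr2, Etfa and Acot1.

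**Figure D1:**
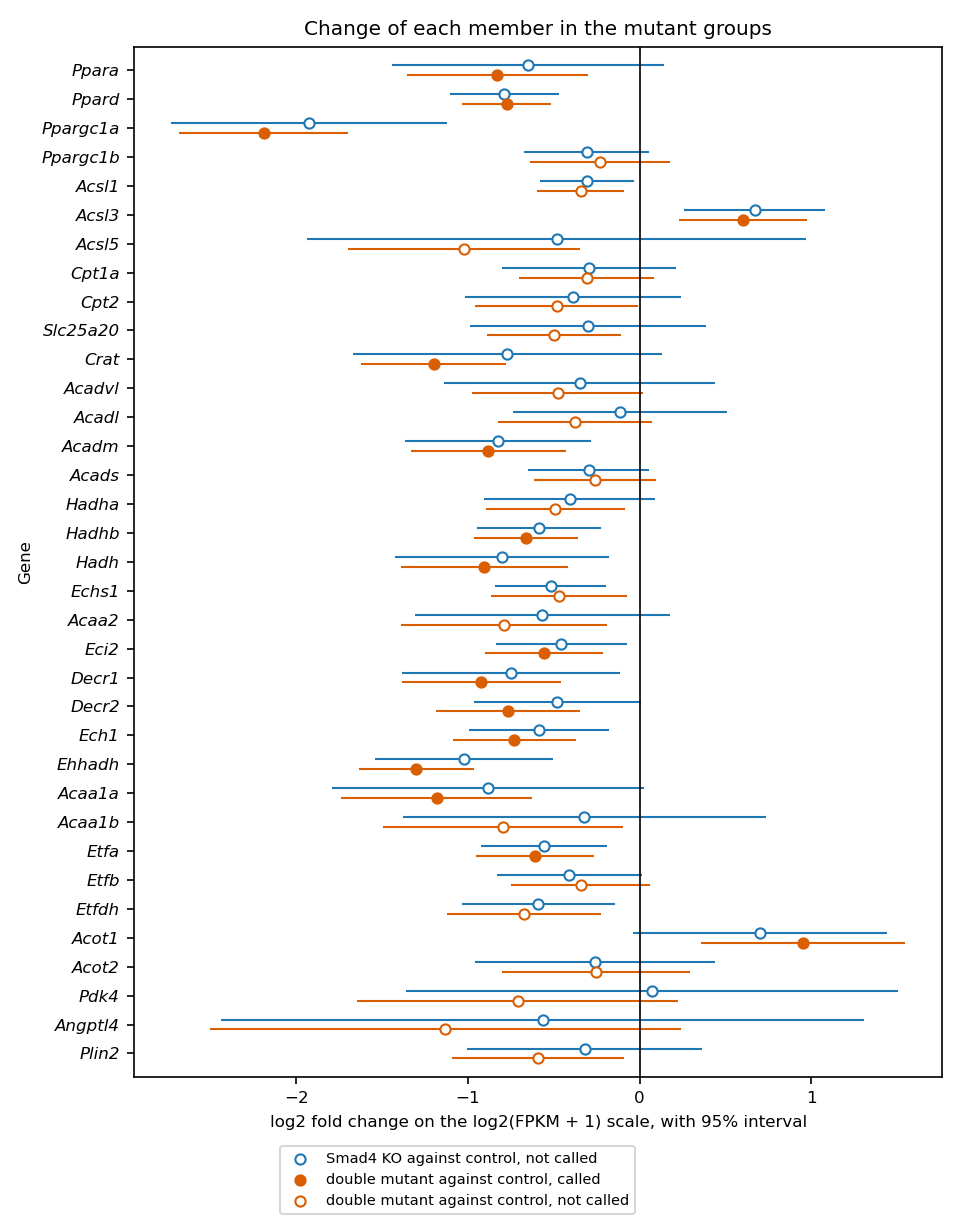
Log2 fold change of each member against control on the log2(FPKM + 1) scale, with 95% intervals from limma, for Smad4 KO (blue) and double mutants (orange); filled points passed the adjusted threshold. Ppargc1a lies farthest to the left in both comparisons, at -1.93 and -2.19, and only Acsl3 and Acot1 have filled points to the right of 0.

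The list was not at one level over the libraries of a group. Averaged over the 35 members, log2(FPKM + 1) relative to the control mean was -0.30, 0.10 and 0.20 in controls 0, 1 and 2, -0.10, -0.56 and -0.75 in Smad4 KO 0, 1 and 2, and -0.79, -0.50 and -0.61 in double mutants 0, 1 and 2. Smad4 KO 0 thus lay inside the range of the controls, and the other 5 mutant libraries below it. Smad4 KO 0 and double mutant 1, each the highest of its group, were also the only males of their groups. Control 2, the highest control, was the only female control. The part of sex in these differences inside a group was not tested. Control 0 was the lowest control for 29 members, Smad4 KO 0 the highest Smad4 KO library for 26, and double mutant 0 the lowest double mutant for 29. The SD of the mutant group was larger in Smad4 KO than in double mutants for 29 of 35 members. The median coefficient of variation over members was 25.4% in Smad4 KO, 13.5% in double mutants and 21.3% in the controls.

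Enterocyte markers were low in the same 5 libraries. Their list mean was -0.48, -0.25 and 0.73 in the controls, 0.23, -2.38 and -1.86 in Smad4 KO, and -2.56, -1.80 and -2.0 in double mutants, on the same scale. Their summed FPKM was 14095, 1783 and 2831 in Smad4 KO 0, 1 and 2, and 1713, 2890 and 2566 in the double mutants. In double mutants 28 of 34 enterocyte markers were called lower, and in the Smad4 KO comparison 0 were, with 9 lower and 0 higher at an unadjusted p under 0.05. The part of enterocyte content in the members' change was not tested. In Smad4 KO 0, 22 of 34 enterocyte markers lay inside the control range, 5 below it and 7 above it, and 27 were below control 2; in Smad4 KO 1 and 2, 34 and 32 lay below all controls. Of the members, 15 of 35 (42.9%) lay below all controls in Smad4 KO 0, where 33.5% of all genes tested did. In Smad4 KO 1 and 2, 26 (74.3%) and 31 (88.6%) of the members did, where 30.5% and 33.2% of all genes did. The share of members below all controls was thus near that of all genes in Smad4 KO 0. It was above that share in the other Smad4 KO libraries, with no test made. Ppargc1a, Ppard and Ehhadh were among the 15 in Smad4 KO 0. Above all controls in that library lay Acsl3, Acsl5, Slc25a20, Acot1 and Pdk4, or 14.3% of the members, where 31.2% of all genes tested did.

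**Figure D2:**
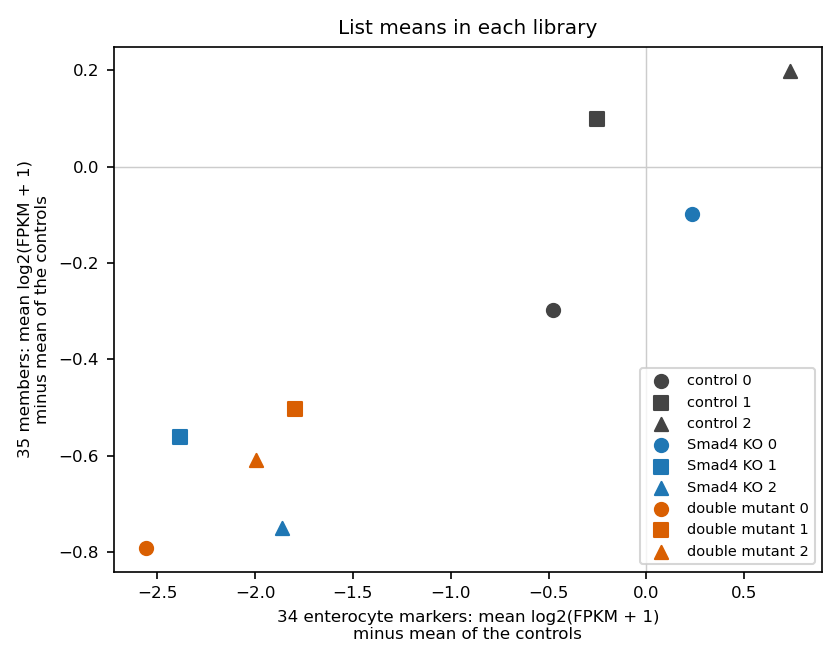
Mean log2(FPKM + 1) of the 35 members (vertical axis) against that of 34 enterocyte markers (horizontal axis) in each library, both relative to the mean of the controls of the same table. Smad4 KO 0 stands with the controls at 0.23 and -0.10, while the other 5 mutant libraries lie at -1.80 or lower on the horizontal axis and at -0.50 or lower on the vertical one.

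Other cell types differed between libraries too. The summed FPKM of 12 Paneth cell markers was 163795, 79659 and 62247 in the controls, 10298, 73450 and 151608 in Smad4 KO, and 105258, 38493 and 57242 in double mutants; it was highest in control 0, Smad4 KO 2 and double mutant 0, the libraries that were lowest for most members of their group. The 50 most abundant genes of each library took 47.4% of all FPKM in control 0, 48.8% in Smad4 KO 2 and 43.6% in double mutant 0, against 28.6% to 38.7% in the other 6 libraries. With library totals taken without the 50 genes highest on average in a table, the members' median was -0.46 in Smad4 KO and -0.60 in double mutants. In those fits 0 and 12 members were called lower, beside 3 and 826 of all genes. Of 11 stromal and endothelial markers the sum was 91.2 FPKM in Smad4 KO 2 and 57.8 FPKM in double mutant 0, against 5.18 to 24.1 FPKM elsewhere. Of 7 fat cell markers, with sums of 1.31 to 22.6 FPKM, 1 reached a mean of 1 FPKM in a table, namely Cidec; Lep was at 0 in all 9 libraries, and Adipoq and Retn were at 0 in all but control 2. Of 15 stem cell markers 3 were called higher in double mutants (9.39% of all genes) and 0 in Smad4 KO. Their fold changes were above 0 for 15 in double mutants and 7 in Smad4 KO. Of 10 goblet cell markers 1, Clca3, was called lower in double mutants (9.09% of all genes) and 0 in Smad4 KO. Of 8 immune markers 3 (Ptprc, Cd3e and Cd8a) were called lower in double mutants (9.09% of all genes) and 0 in Smad4 KO, with 0 lower or higher there at an unadjusted p under 0.05. The means of these 3 were 2.30, 2.24 and 3.15 FPKM in double mutants, against 7.45, 7.48 and 11.3 FPKM in controls. The sums of the 8 were 491 to 1345 FPKM in controls, 545 to 1244 FPKM in Smad4 KO and 434 to 901 FPKM in double mutants. Most of each sum was Cd74, at 468 to 1287 FPKM in controls, 532 to 1200 FPKM in Smad4 KO and 401 to 889 FPKM in double mutants. All 6 tuft cell markers tested had fold changes below 0 in both comparisons; 0 were called by limma, and 3 in Smad4 KO and 2 in double mutants were lower at an unadjusted p under 0.05. Of 10 enteroendocrine markers 6 lay above all controls in Smad4 KO (14.2% of all genes), where 0 were called. In double mutants 2 lay above all controls (21.3% of all genes) and 1 was called higher (9.39% of all genes). Their fold changes were above 0 for 10 in Smad4 KO and 7 in double mutants. The part of these other cell types in the members' change was not tested.

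Among the transcription factors and coactivators, 3 of 4 fell in double mutants. Ppargc1a encodes PGC-1 alpha, the coactivator that drives mitochondrial biogenesis and fat oxidation. The FPKM of Ppargc1a was 9.2, 12.8 and 15.1 over control libraries 0, 1 and 2 and 4.36, 2.13 and 1.46 over Smad4 KO libraries 0, 1 and 2. Ppargc1a in double mutants 0, 1 and 2 was at 1.89, 2.47 and 1.69 FPKM, where the controls of that table read 9.49, 13.5 and 15.8 FPKM. Every mutant library was below the lowest control, and Smad4 KO 0 was the highest of the 6 mutant libraries. That left 21.4% of control in Smad4 KO (log2 fold change -1.93 with SE 0.33, limma adjusted p = 0.111) and 15.6% in double mutants (log2 fold change -2.19 with SE 0.20, limma adjusted p = 0.00791), the lowest percentage of any member in each comparison. The change in double mutants passed the test in 16 of 17 alternative settings, the exception being the fit without double mutant 2 (adjusted p = 0.0525).

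Ppard encodes PPAR delta. The FPKM of Ppard was 57.6, 64.5 and 68.6 over control libraries 0, 1 and 2 and 32.3, 36 and 41.2 over Smad4 KO libraries 0, 1 and 2. Ppard in double mutants 0, 1 and 2 was at 39.7, 39.8 and 35.6 FPKM, where the controls of that table read 59.4, 68.3 and 71.6 FPKM. Both mutant groups lay below all controls, with no overlap and little spread inside a group. Its level was 57.4% of control in Smad4 KO (log2 fold change -0.79 with SE 0.13, limma adjusted p = 0.111) and 57.7% in double mutants (log2 fold change -0.77 with SE 0.11, limma adjusted p = 0.0136). Ppara encodes PPAR alpha, the receptor best known from liver and absorptive epithelium. The FPKM of Ppara was 12.4, 20.5 and 17.7 over control libraries 0, 1 and 2 and 13.9, 12.2 and 6.12 over Smad4 KO libraries 0, 1 and 2. Ppara in double mutants 0, 1 and 2 was at 7.62, 11.2 and 9.38 FPKM, where the controls of that table read 12.8, 21.7 and 18.4 FPKM. Control 0 was low among the controls and overlapped Smad4 KO 0, while the double mutants lay below all controls. Ppara was at 63.6% of control in Smad4 KO (log2 fold change -0.65 with SE 0.32, limma adjusted p = 0.331) and fell to 53.2% in double mutants (log2 fold change -0.83 with SE 0.22, limma adjusted p = 0.0466). That call was kept in 6 of 17 alternative settings. Of the fits that left out 1 library, only the one without control 0 kept it. Ppargc1b, which encodes the related coactivator PGC-1 beta, did not pass in either group (79.2% of control, adjusted p = 0.316 in Smad4 KO; 84.8% of control, adjusted p = 0.37 in double mutants).

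The acyl-CoA synthetases, which activate fatty acids, differed in direction. Acsl3, the form of the endoplasmic reticulum and lipid droplets, rose in double mutants. The FPKM of Acsl3 was 12, 13.4 and 9.3 over control libraries 0, 1 and 2 and 21.8, 18.2 and 16.6 over Smad4 KO libraries 0, 1 and 2. Acsl3 in double mutants 0, 1 and 2 was at 17.8, 21.1 and 17.2 FPKM, where the controls of that table read 12.4, 14.2 and 9.7 FPKM. All 6 mutant libraries were above the highest control. Acsl3 was 1.64-fold of control in Smad4 KO (log2 fold change 0.67 with SE 0.17, limma adjusted p = 0.15) and 1.55-fold in double mutants (log2 fold change 0.60 with SE 0.15, limma adjusted p = 0.0442), and the latter was not called in any fit that left out 1 library except the fit without control 1. Acsl5 was split inside the Smad4 KO group. The FPKM of Acsl5 was 188, 226 and 364 over control libraries 0, 1 and 2 and 443, 104 and 123 over Smad4 KO libraries 0, 1 and 2. Acsl5 in double mutants 0, 1 and 2 was at 105, 156 and 127 FPKM, where the controls of that table read 194, 239 and 380 FPKM. Smad4 KO 0 was above all controls and the other 5 mutant libraries below them. Acsl5 did not pass in Smad4 KO (log2 fold change -0.48 with SE 0.59, limma adjusted p = 0.692) or, narrowly, in double mutants (log2 fold change -1.02 with SE 0.28, limma adjusted p = 0.0515). Acsl1, the long-chain synthetase of oxidative tissues, was at 79.8% and 77.5% of control (adjusted p = 0.232 and 0.0696), below all controls in both groups.

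**Figure D3:**
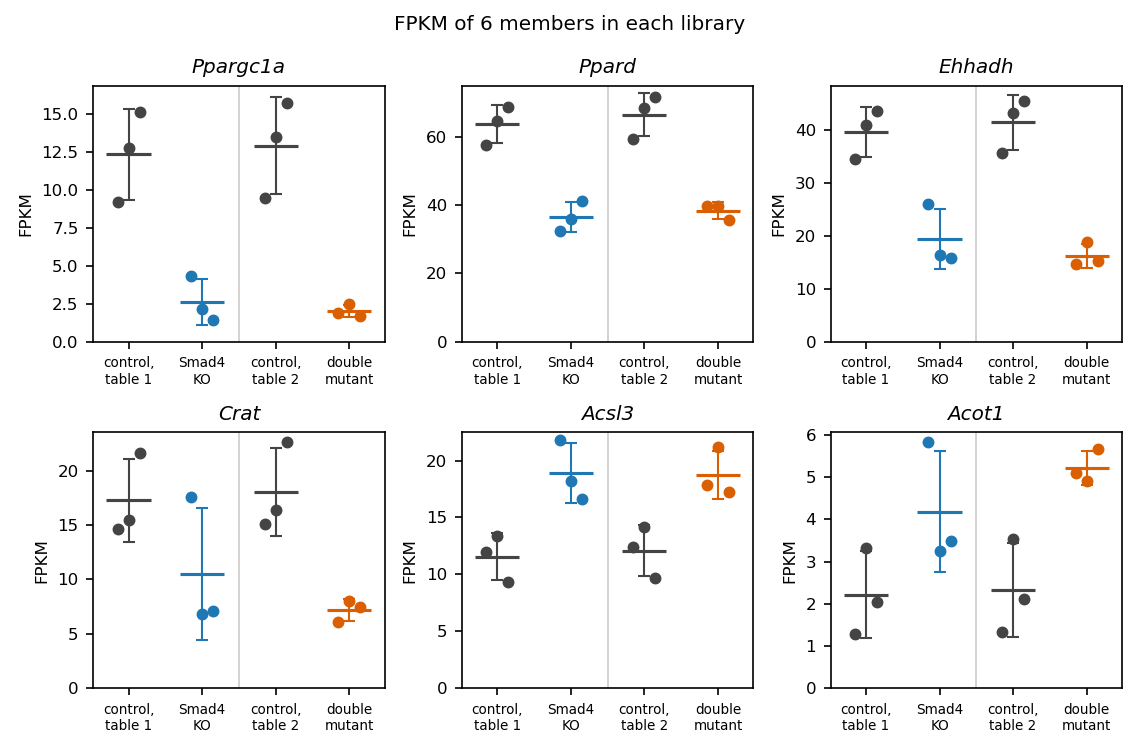
FPKM of Ppargc1a, Ppard, Ehhadh, Crat, Acsl3 and Acot1 in each library, with 1 point per library, a bar at the mean and whiskers of 1 SD (n = 3); the controls stand in both comparisons because each table has its own scaling. Ppargc1a, Ppard and Ehhadh lie below all controls in both mutant groups and Acsl3 above them, while Crat and Acot1 are clear of the controls in the double mutants alone.

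In the carnitine system 1 of 4 members fell. Crat, the carnitine acetyltransferase that buffers acetyl-CoA, was the one. The FPKM of Crat was 14.6, 15.5 and 21.7 over control libraries 0, 1 and 2 and 17.5, 6.82 and 7.13 over Smad4 KO libraries 0, 1 and 2. Crat in double mutants 0, 1 and 2 was at 6.12, 8.05 and 7.45 FPKM, where the controls of that table read 15.1, 16.4 and 22.6 FPKM. The double mutants lay below all controls, while Smad4 KO 0 lay inside the control range. Crat was at 60.8% of control in Smad4 KO (log2 fold change -0.77 with SE 0.37, limma adjusted p = 0.313) and 40% in double mutants (log2 fold change -1.20 with SE 0.17, limma adjusted p = 0.0152). Cpt1a, the rate-limiting gate of mitochondrial entry, was at 82.1% and 80.4% of control and did not pass (adjusted p = 0.484 and 0.221). Cpt2, the inner membrane transferase, and Slc25a20, the carnitine carrier, were at 70.1% and 69.8% of control in double mutants (adjusted p = 0.133 and 0.0789), without passing.

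Of the acyl-CoA dehydrogenases, which take the first step of each round for chains of a given length, 1 of 4 fell. The FPKM of Acadm was 47.1, 67.9 and 71.8 over control libraries 0, 1 and 2 and 42, 34.3 and 27.6 over Smad4 KO libraries 0, 1 and 2. Acadm in double mutants 0, 1 and 2 was at 31, 38.3 and 33.9 FPKM, where the controls of that table read 48.6, 71.9 and 74.9 FPKM. This gene, the medium-chain dehydrogenase, lay below all controls in all 6 mutant libraries. Acadm was at 55.6% of control in Smad4 KO (log2 fold change -0.82 with SE 0.22, limma adjusted p = 0.164) and 52.8% in double mutants (log2 fold change -0.88 with SE 0.19, limma adjusted p = 0.0291). Acadvl, Acadl and Acads, for very long, long and short chains, were at 70.5%, 76.1% and 82.8% of control in double mutants, with adjusted p of 0.15, 0.197 and 0.249. Acadl had no settled direction in Smad4 KO: its log2 fold change was -0.11 with all libraries, 0.061 without control 2 and 0.024 without Smad4 KO 2.

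All 5 genes of the later mitochondrial steps lay below all controls in double mutants, and 2 of them passed the test. Hadhb encodes the thiolase subunit of the trifunctional protein. The FPKM of Hadhb was 11.6, 13.6 and 14.7 over control libraries 0, 1 and 2 and 9.94, 8.45 and 7.26 over Smad4 KO libraries 0, 1 and 2. Hadhb in double mutants 0, 1 and 2 was at 8.09, 9.39 and 7.7 FPKM, where the controls of that table read 12, 14.4 and 15.3 FPKM. Every mutant library was below every control. Hadhb was at 64.4% of control in Smad4 KO (log2 fold change -0.58 with SE 0.15, limma adjusted p = 0.154) and 60.5% in double mutants (log2 fold change -0.66 with SE 0.13, limma adjusted p = 0.0234). Its partner Hadha, the subunit with hydratase and dehydrogenase activity, was at 75.5% and 70.5% (adjusted p = 0.331 and 0.0886). Although the genes share the printed stretch of DNA, the ratio of Hadha to Hadhb in FPKM was 6.84, 7.03 and 7.61 in the controls. It was 8.57, 8.88 and 7.73 in Smad4 KO and 7.42, 8.34 and 9.45 in double mutants, so that 5 of 6 mutant libraries lay above all controls; the difference in ratio was not tested.

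Hadh, the most abundant member, also fell. The FPKM of Hadh was 215, 299 and 326 over control libraries 0, 1 and 2 and 201, 164 and 119 over Smad4 KO libraries 0, 1 and 2. Hadh in double mutants 0, 1 and 2 was at 131, 171 and 162 FPKM, where the controls of that table read 222, 317 and 340 FPKM. All mutant libraries lay below all controls, though Smad4 KO 0 was close to control 0. Hadh was at 57.7% of control in Smad4 KO (log2 fold change -0.80 with SE 0.26, limma adjusted p = 0.192) and 52.8% in double mutants (log2 fold change -0.90 with SE 0.20, limma adjusted p = 0.0332). Echs1 encodes the short-chain enoyl-CoA hydratase. The FPKM of Echs1 was 94.4, 111 and 92 over control libraries 0, 1 and 2 and 65.2, 77.6 and 64.4 over Smad4 KO libraries 0, 1 and 2. Echs1 in double mutants 0, 1 and 2 was at 65.3, 91.7 and 68.4 FPKM, where the controls of that table read 97.4, 118 and 95.9 FPKM. The groups did not overlap in either table. Echs1 did not pass in Smad4 KO (log2 fold change -0.52 with SE 0.13, limma adjusted p = 0.156) or in double mutants (log2 fold change -0.47 with SE 0.16, limma adjusted p = 0.0938). Acaa2, the mitochondrial thiolase, was at 66.9% and 55.9% of control (adjusted p = 0.361 and 0.073).

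All 4 auxiliary enzymes for unsaturated fatty acids fell in double mutants, to between 51.5% and 66.9% of control. With sex as a covariate Decr2 was not called, and without the mean-variance trend Eci2 was not. Of 17 alternative settings, Decr1 kept the call in 13, Ech1 in 12, Decr2 in 10 and Eci2 in 9. Among the fits that left out a library, Decr1 kept it in 2, and Ech1, Decr2 and Eci2 in 1 each. Decr1 is the mitochondrial dienoyl-CoA reductase. The FPKM of Decr1 was 40.7, 44.6 and 61.5 over control libraries 0, 1 and 2 and 40, 24.9 and 22.6 over Smad4 KO libraries 0, 1 and 2. Decr1 in double mutants 0, 1 and 2 was at 21.9, 30.2 and 26.9 FPKM, where the controls of that table read 42, 47.3 and 64.1 FPKM. No mutant library reached the lowest control, although Smad4 KO 0 came near it. Decr1 was at 59.6% of control in Smad4 KO (log2 fold change -0.75 with SE 0.26, limma adjusted p = 0.212) and 51.5% in double mutants (log2 fold change -0.92 with SE 0.19, limma adjusted p = 0.0284). Decr2 is its peroxisomal counterpart. The FPKM of Decr2 was 12.5, 19.7 and 16.2 over control libraries 0, 1 and 2 and 11.1, 13.3 and 9.34 over Smad4 KO libraries 0, 1 and 2. Decr2 in double mutants 0, 1 and 2 was at 8.83, 10.1 and 9.16 FPKM, where the controls of that table read 12.9, 20.9 and 16.9 FPKM. Smad4 KO 1 overlapped the controls, and the double mutants did not. Decr2 fell to 55.4% of control in double mutants (log2 fold change -0.77 with SE 0.17, limma adjusted p = 0.0339), and in Smad4 KO was at 69.5% (log2 fold change -0.48 with SE 0.20, limma adjusted p = 0.264).

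Eci2 and Ech1 encode isomerases that move double bonds into place. The FPKM of Eci2 was 33.7, 40 and 45.5 over control libraries 0, 1 and 2 and 30.3, 31.2 and 24.3 over Smad4 KO libraries 0, 1 and 2. Eci2 in double mutants 0, 1 and 2 was at 25.6, 26.7 and 31 FPKM, where the controls of that table read 34.7, 42.4 and 47.4 FPKM. Its groups did not overlap in either table. Eci2 was at 72.1% of control in Smad4 KO (log2 fold change -0.46 with SE 0.16, limma adjusted p = 0.207) and 66.9% in double mutants (log2 fold change -0.56 with SE 0.14, limma adjusted p = 0.0434). The FPKM of Ech1 was 124, 163 and 169 over control libraries 0, 1 and 2 and 111, 102 and 88.6 over Smad4 KO libraries 0, 1 and 2. Ech1 in double mutants 0, 1 and 2 was at 90.7, 96 and 97.4 FPKM, where the controls of that table read 128, 173 and 176 FPKM. Here too every mutant library was below every control. Ech1 was at 66% of control in Smad4 KO (log2 fold change -0.59 with SE 0.17, limma adjusted p = 0.173) and 59.5% in double mutants (log2 fold change -0.73 with SE 0.15, limma adjusted p = 0.027).

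The 3 members grouped as peroxisomal enzymes, Ehhadh, Acaa1a and Acaa1b, lay between 39.2% and 41.7% of control in double mutants, and 2 of them passed. Decr2, also peroxisomal, was counted above with the enzymes for unsaturated fatty acids and was at 55.4%. Ehhadh, the bifunctional enzyme of peroxisomal oxidation and a classical PPAR alpha target, was second only to Ppargc1a in its log2 decrease among the called members. The FPKM of Ehhadh was 34.5, 40.9 and 43.7 over control libraries 0, 1 and 2 and 26, 16.4 and 15.8 over Smad4 KO libraries 0, 1 and 2. Ehhadh in double mutants 0, 1 and 2 was at 14.8, 18.8 and 15.2 FPKM, where the controls of that table read 35.6, 43.3 and 45.5 FPKM. Both mutant groups were clear of the controls. Ehhadh was at 48.9% of control in Smad4 KO (log2 fold change -1.02 with SE 0.21, limma adjusted p = 0.122) and 39.2% in double mutants (log2 fold change -1.30 with SE 0.14, limma adjusted p = 0.0102), where it passed in 16 of 17 alternative settings and missed without double mutant 2 (adjusted p = 0.0614). Acaa1a encodes a peroxisomal thiolase. The FPKM of Acaa1a was 36.1, 47.8 and 67.7 over control libraries 0, 1 and 2 and 43.1, 18.1 and 22.6 over Smad4 KO libraries 0, 1 and 2. Acaa1a in double mutants 0, 1 and 2 was at 19.5, 23.1 and 23.5 FPKM, where the controls of that table read 37.2, 50.7 and 70.6 FPKM. Smad4 KO 0 lay inside the control range and the double mutants below it. Acaa1a fell to 41.7% of control in double mutants (log2 fold change -1.18 with SE 0.23, limma adjusted p = 0.0248) and in Smad4 KO was at 55.3% (log2 fold change -0.88 with SE 0.37, limma adjusted p = 0.269). Its near-identical copy Acaa1b was at 39.9% in double mutants (adjusted p = 0.103); how reads were divided between the copies is not given, so both values are uncertain.

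Electron transfer flavoprotein carries electrons from the dehydrogenases to the respiratory chain. Its alpha subunit gene Etfa fell. The FPKM of Etfa was 85.6, 108 and 98.8 over control libraries 0, 1 and 2 and 63.8, 76.3 and 58.5 over Smad4 KO libraries 0, 1 and 2. Etfa in double mutants 0, 1 and 2 was at 58.2, 73.7 and 67.8 FPKM, where the controls of that table read 88.3, 115 and 103 FPKM. The groups were separate in both tables. Etfa, whose promoter carries the DR1 match printed above, was at 67.8% of control in Smad4 KO (log2 fold change -0.56 with SE 0.15, limma adjusted p = 0.164) and 65.2% in double mutants (log2 fold change -0.61 with SE 0.14, limma adjusted p = 0.0364). Plin2 and Echs1, the other members with a DR1 match, were not called in double mutants (limma adjusted p = 0.0945 and 0.0938). Etfdh, the oxidoreductase that passes the electrons on, narrowly missed the threshold in double mutants (62.2% of control, adjusted p = 0.0527), and the beta subunit gene Etfb did not pass (78.3% of control, adjusted p = 0.19).

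Acot1, a thioesterase that releases free fatty acids from acyl-CoA in the cytosol, was the other member that rose. The FPKM of Acot1 was 1.3, 3.33 and 2.04 over control libraries 0, 1 and 2 and 5.83, 3.24 and 3.48 over Smad4 KO libraries 0, 1 and 2. Acot1 in double mutants 0, 1 and 2 was at 5.1, 4.9 and 5.66 FPKM, where the controls of that table read 1.34, 3.53 and 2.13 FPKM. The double mutants were above all controls, while Smad4 KO 1 was inside the control range. Acot1 was 1.88-fold of control in Smad4 KO (log2 fold change 0.70 with SE 0.30, limma adjusted p = 0.279) and 2.24-fold in double mutants (log2 fold change 0.95 with SE 0.25, limma adjusted p = 0.0449). Like Acsl3, it kept the call in only 1 of the 6 fits that left out a library, the one without control 1. Acot2, its mitochondrial near-identical copy, was at 76.2% and 74.4% of control (adjusted p = 0.656 and 0.451). In control 0 both genes read 1.3 FPKM, and how shared reads were divided between them is not given, so both are uncertain.

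Of the PPAR targets outside the oxidation pathway none passed in either comparison. The spread was wide for Pdk4 and Angptl4, with a coefficient of variation in controls of 69.8% and 70.1%, against 21.8% for Plin2. Pdk4, the kinase that shuts off glucose oxidation, had an FPKM of 0.312, 1.94 and 2.3 over the control libraries and 4.25, 0.586 and 0.777 over Smad4 KO libraries 0, 1 and 2. Smad4 KO 0 was above all controls, and the other Smad4 KO libraries lay inside their range. In double mutants 0, 1 and 2 Pdk4 was at 0.309, 0.472 and 0.631 FPKM, where the controls of that table read 0.322, 2.06 and 2.4 FPKM, and it did not pass (29.5% of control, adjusted p = 0.235). The log2 fold change of Pdk4 in Smad4 KO was 0.07 and became -0.48 without Smad4 KO 0. Angptl4, a lipase inhibitor, was at 63% and 30.2% of control (adjusted p = 0.719 and 0.202), with an SD in controls of 5.36 FPKM around a mean of 7.64 FPKM. Plin2, the lipid droplet coat protein, was at 81.2% and 65% (adjusted p = 0.566 and 0.0945).

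**Figure D4:**
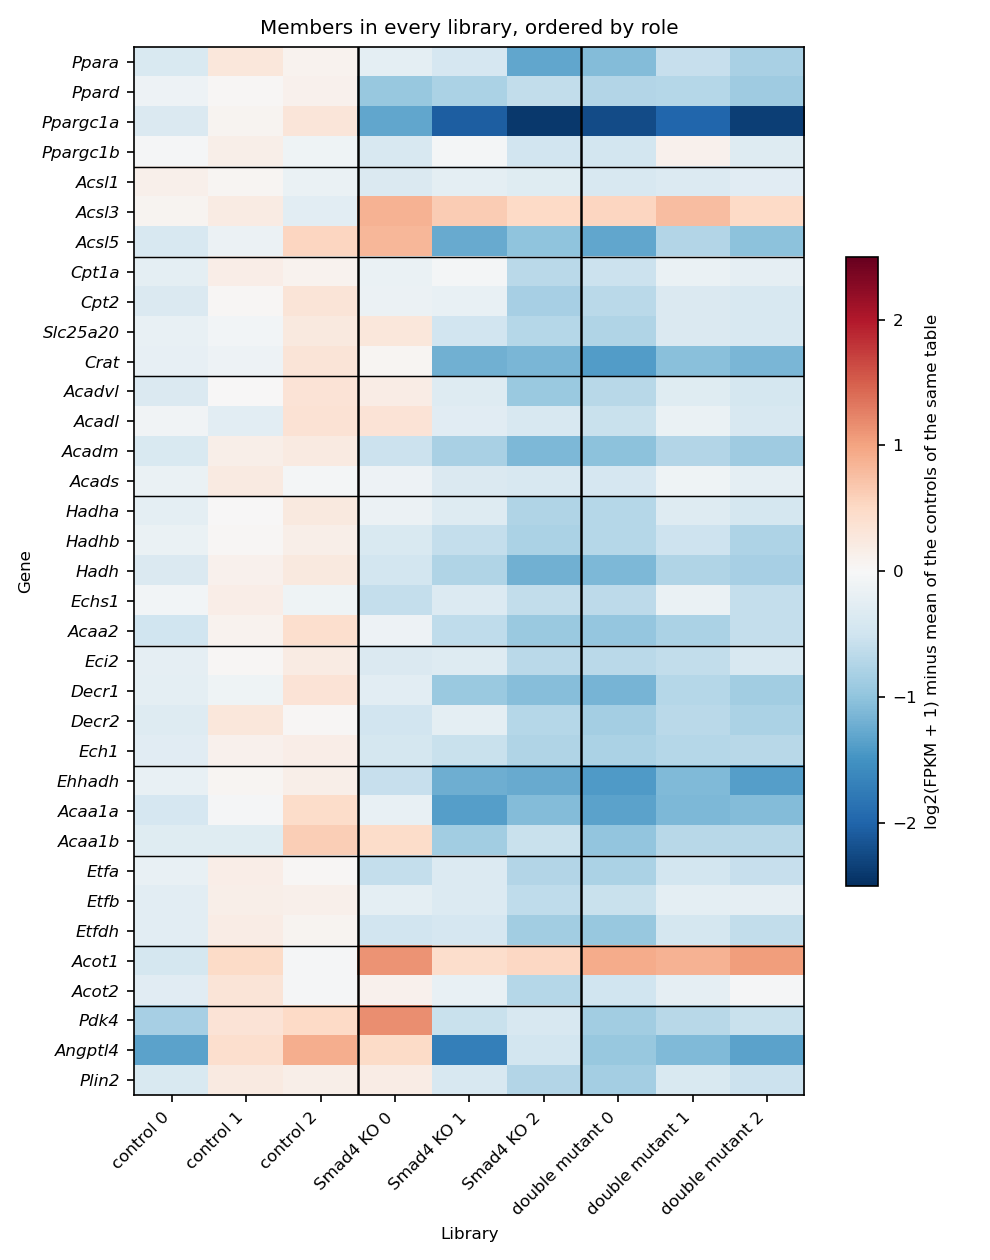
Log2(FPKM + 1) of each member in each library minus the mean of the controls of the same table, with members in rows by role and libraries in columns. Values for Smad4 KO 0 are mixed, the other mutant columns are mostly below the controls, and Ppargc1a is the row with the lowest values.

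A wider list of 95 genes of lipid handling and fuel choice outside the 35, of which 94 matched a row, was counted in the same way. In Smad4 KO crypts, 0 of 76 tested were called in either direction, with a median log2 fold change of -0.39. At an unadjusted p under 0.05, 24 were lower and 0 higher, where 9.34% and 9.76% of all genes were. In double mutants 25 of 77 tested (32.5%) were called lower and 0 higher, where 9.09% and 9.39% of all genes were. The median was -0.47, and over all genes the median was -0.00 in both comparisons. The 5 with the smallest p are named here. Pdk2, a relative of Pdk4, had the smallest, with 31.7, 32.9 and 39.9 FPKM over control libraries 0, 1 and 2 and 11.6, 8.83 and 10.7 FPKM over double mutants 0, 1 and 2 (log2 fold change -1.66 with SE 0.14, limma adjusted p = 0.00694). Phyh, the peroxisomal enzyme of branched-chain alpha-oxidation, followed, with 106, 117 and 136 FPKM over control libraries 0, 1 and 2 and 59.2, 60.8 and 52.2 FPKM over double mutants 0, 1 and 2 (log2 fold change -1.04 with SE 0.13, limma adjusted p = 0.0122). In both, all double mutants lay below all controls. Cd36, the fatty acid transporter, had the largest decrease of the 5, with 4.65, 7.44 and 16.2 FPKM over control libraries 0, 1 and 2 and 0.559, 0.284 and 0.717 FPKM over double mutants 0, 1 and 2 (log2 fold change -2.63 with SE 0.40, limma adjusted p = 0.0164). Cidec, a lipid droplet protein, and Crot, the peroxisomal carnitine octanoyltransferase, were at 38.1% and 48.7% of control (limma adjusted p = 0.0169 and 0.018).

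Smad4 KO and double mutants were not tested against each other, and their values come from tables scaled separately. Both comparisons also use the same 3 controls, so a like change in both is in part a property of those controls. Side by side, the percentages of control were 21.4% and 15.6% for Ppargc1a, 57.4% and 57.7% for Ppard, 48.9% and 39.2% for Ehhadh, and 164% and 155% for Acsl3. The values for Ppard, Hadhb (64.4% and 60.5%) and Etfa (67.8% and 65.2%) were near each other. The widest gap stood at Pdk4 (123% and 29.5%), with wide gaps also at Acsl5 (86% and 47.7%) and Acaa1b (76.6% and 39.9%); in all 3 genes Smad4 KO 0 stood apart from the other Smad4 KO libraries.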

How the data were processed

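The authors deposited FPKM values (fragments scaled by transcript length and library size) in tables normalised separately, 1 for controls with Smad4 KO and 1 for the same controls with double mutants. The submitters' processing notes name TopHat2 2.1.1, Cuffnorm 2.2.1, Cuffdiff 2.2.1 and mm9; neither tool roles nor annotation are given in the sources used here. Their kit, TruSeq RNA version 2 per the labels' protocols, does not mark strand. FPKM are not counts and read totals are unknown here, so precision rests on the spread of 3 libraries per group.

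limma 3.58.1 (R 4.3.3) was run on log2(FPKM + 1) for each table by itself, with a mean-variance trend and only for genes whose mean reached 1 FPKM. On that scale fold changes of low genes come out too small. P-values were two-sided and Benjamini-Hochberg adjusted over all genes of a table; "called" means an adjusted p under 0.05. The procedure was tested on simulated data with noise drawn for each gene by itself. That test does not cover shifts shared by many genes of a library and is not used as support here. The members and gene lists were chosen with earlier results of these data known, so the lists give no independent support. Per-library values are given for members called in either comparison or with an unadjusted p under 0.01, and for Pdk4 as an example chosen after its values were seen; of the wider list, the called genes with the smallest p are named, up to 5 per direction. Libraries of a group differed by a median of 0.145 to 0.297 on the log2 scale, so none was treated as a repeat of another. Replicate numbers were not used as pairs. Alternatives covered pseudocount, filter, scaling, the trend, a joint fit, sex, a replicate block and leaving out each library. Promoters came from RefSeq (GRCm38.p6), a build other than that of the tables.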

Additional observations from a re-analysis of the deposited data

How the results depend on the processing

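In the double mutant comparison, none of the 589 recomputed member values changed direction; 87 lost the call and 20 gained it. Members called lower came to 9 with no filter on low values and 9 with sex as a covariate, beside 14, and to between 0 and 21 when 1 library was left out. Members called higher, 2 with the settings reported, came to 0 with no filter, to 1 at a mean of at least 5 FPKM, with no trend, under quantile normalization, without the 50 highest genes and with sex as a covariate, and to between 0 and 2 when 1 library was left out. The median moved to -0.50 with a pseudocount of 5. Ppargc1a and Ehhadh were called in 16 of 17 alternatives, Ppard and Crat in 15. In the Smad4 KO comparison, members called lower came to 3 with all 9 libraries in one fit and to 0 otherwise, and the median lay between -0.60 and -0.32 when 1 library was left out. Leaving out 1 library moved the log2 fold change of Pdk4 between -0.48 (without Smad4 KO 0) and 0.39 (without Smad4 KO 1), with -0.34 without control 0. The value for Acadl was 0.061 without control 2 and 0.024 without Smad4 KO 2, and for Angptl4 the range was -1.23 (without control 0) to 0.013 (without Smad4 KO 1). Of all genes, the lower and higher calls in double mutants were 621 and 771 with no filter, and 12 and 18 without double mutant 2; in Smad4 KO they were 179 and 272 with all 9 libraries in one fit, beside 3 and 1. The cause was not tested, other than that fewer libraries enter a fit that leaves 1 out.

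With the replicate number as a block, 17 members were called lower and 1 higher in double mutants and 0 in Smad4 KO, and of all genes 870 were called lower and 732 higher in double mutants, beside 1069 and 1104. Deviations of same-numbered libraries correlated at 0.07, 0.13 and 0.04 in the double mutant table, where each library correlated best with its own number, and at -0.11, 0.22 and -0.10 in the Smad4 KO table, so the numbers were not taken to pair the libraries. FPKM without read totals give no counting error, which limits low members such as Pdk4, Acot1, Acot2 and Acaa1b most.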
